A study of Caenorhabditis elegans with 4 samples.

Results

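The regions described here are the 1912 places on chromosome III of Caenorhabditis elegans where RNA polymerase II was called in the authors' list of both ChIP replicates merged, out of 9051 regions in all. They were chosen by chromosome alone. Replicate 1 by itself listed 1660 regions on chromosome III out of 7359, and replicate 2 listed 1559 out of 7115. Each region has a start and an end in the WormBase WS220 build and a q-value, the authors' false discovery estimate for enrichment over input DNA.

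Whole hermaphrodites at the L3 larval stage, kept at 20 °C, were used, so the signal of all their tissues is mixed. The samples were 2 Pol II ChIP replicates, made with the 8WG16 mouse monoclonal antibody, and 2 inputs, which are sonicated chromatin without immunoprecipitation. All 4 samples carry the mutation unc-119(ed3) and the transgene wgIs54, which holds unc-119(+) and egl-5 fused to TY1, EGFP and 3xFLAG, per the labels, which name the strain OP54. The titles and the strain's description instead name EOR-1 as the fused protein, and OP81 is the strain in the deposited sample table; this conflict was not resolved here. There was no group without the transgene. The labels place unc-119 on chromosome III, and the part of the transgene's copy in the regions of this chromosome was not tested. The labels do not say that the replicates came from separate cultures, so the spread between them may be technical. The ChIP libraries had 3262273 and 4623128 uniquely mapped reads and the inputs 1912753 and 1414731. The spacing of the q-values puts the first line of the combined list at rank 263 among the regions tested, that of replicate 1 at rank 153 and that of replicate 2 at rank 72. Regions with better ranks were not analysed here, and how many of them lie on chromosome III is not known.

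RNA polymerase II transcribes the protein-coding genes and many small RNA genes. The antibody recognises the tail of heptapeptide repeats on AMA-1, its largest subunit, so a region marks a stretch of DNA bound by the enzyme at a promoter or along a gene body. Nematode chromosomes have no single centromere. The middle of each autosome is dense in genes and recombines little, while the outer parts, called arms, hold more repeats and recombine more. Many worm genes lie close together, some in operons that are transcribed as 1 unit.

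Chromosomes III and I were the most densely marked and had the narrowest regions. Chromosome III came first in both by a small margin in the lists as analysed. The 1912 regions made up 21.1% of all regions on 13.7% of the summed chromosome length. Their density was 138.8 regions per Mb, against 82.6 on the 5 other chromosomes. Chromosomes I and IV came closest with 138.4 and 120.8 regions per Mb, and chromosomes II, V and X had 66.6, 47.0 and 53.5. In replicate 1 chromosome III had 120.5 regions per Mb, with 119.1 on chromosome I, and in replicate 2 it had 113.2, with 108.1 on chromosome I. It therefore ranked first in all 3 lists, but by a margin over chromosome I that was smaller than the spread between its own replicates (mean 116.9 ± 5.19 per Mb, SD, n = 2). The first rank did not hold among combined regions with q below 1e-05. There chromosome I, with 1609 regions over 15041797 bp, was slightly denser than chromosome III, with 1470 over 13773650 bp. Against chromosomes II, V and X as a group the density was 2.54 times as high in the combined list, and 2.96 times in replicate 1 with 2.55 times in replicate 2. Differences between chromosomes were not tested, because regions of 1 list are not replicates and a list gives 1 value per chromosome.

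In covered bases chromosome III stood less apart. Its regions covered 1.08 Mb, or 7.85% of the chromosome, in the combined list, and 7.98% in replicate 1 with 5.61% in replicate 2. The 5 other chromosomes were covered to 6.76%, 6.39% and 4.18% in the same lists. By cover chromosome III stood at 3 of 6 by the combined list, at 2 by replicate 1 and at 1 by replicate 2. These values leave out the regions ranked above the first line of each list, and their part in this order was not tested. With replicate regions outside the combined list added, cover of chromosome III was 9.87%. The replicate mean was 6.79% ± 1.68 (SD, n = 2), with a wide spread: replicate 1 covered 1.42 times as many bases of chromosome III as replicate 2 with 1.06 times as many regions.

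Most regions were short. The median region on chromosome III was 306.5 bp wide (quartiles 171.75 and 601.25 bp), against 406 bp on the 5 other chromosomes. The medians were 318.5 and 443 bp in replicate 1, and 299 and 389 bp in replicate 2, and chromosome III had the lowest median of the 6 chromosomes in all 3 lists. Chromosome I was nearly the same, with medians of 313 bp in the combined list, 321 bp in replicate 1 and 301 bp in replicate 2. Regions of at least 2500 bp numbered 77 on chromosome III (4.03%, Wilson 95% interval 3.23 to 5.0) and 561 elsewhere (7.86%, interval 7.26 to 8.51), of which 86 were among the 2082 regions of chromosome I. These intervals and those that follow cover counting error only. The 77 wide regions held 24.8% of the covered bases of chromosome III, against 39.1% held by such regions on the other chromosomes. At the other end, 151 regions on chromosome III (7.90%) were narrower than a 36-base read, against 6.16% elsewhere. Width and strength went together: across the 1912 regions the width and the −log10 q-value had a Spearman correlation of 0.831, a description of regions that share the same libraries.

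The share of strong regions on chromosome III was somewhat above that of the 5 other chromosomes pooled, but not above chromosome I in every list, and these differences were not tested. On chromosome III 534 regions had q below 1e-20 (27.9%), against 23.2% of the regions on the other chromosomes pooled, 27.0% on chromosome I and 25.6% on chromosome IV. The median −log10 q was 10.1 on chromosome III, 9.78 on chromosome I and 8.30 on chromosome IV, and it lay between 5.33 and 6.33 on chromosomes II, V and X. In replicate 1 the share with q below 1e-20 was 21.0% on chromosome III and 20.2% elsewhere, with 21.7% on chromosome I and 20.9% on chromosome IV. In replicate 2 it was 14.3% on chromosome III and 11.9% elsewhere, with 12.2% on chromosome I and 10.7% on chromosome IV.

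Along the chromosome, cover was lowest in the second Mb from the left end and highest near the middle. In the combined list the lowest full window of 1 Mb was 1000001 to 2000000, with 94 regions over 4.47% of its bases, and the highest was 6000001 to 7000000, with 157 regions over 10.7%. The same low window had 3.66% in replicate 1 and 2.03% in replicate 2, the lowest of the 13 full windows in each. The peak moved between lists: it was 4000001 to 5000000 in replicate 1 (10.4%) and 5000001 to 6000000 in replicate 2 (7.97%). The windows ranked broadly alike, with a Spearman correlation of 0.725 in cover and 0.872 in the number of regions between the replicates over 13 windows, which share the same input control. Median width changed little from window to window, between 286 and 330.5 bp over the full windows of the combined list. The number of regions and the cover of the windows had a Spearman correlation of 0.781 in that list. Nearly every stretch was marked: of 137 windows of 100 kb, 1 held no region in each of the 3 lists, and the highest reached 25.5% cover. The first region of the combined list began at 14558 and the last ended at 13773605, where the length used here was itself set by the last region of any list.

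**Figure D1:**
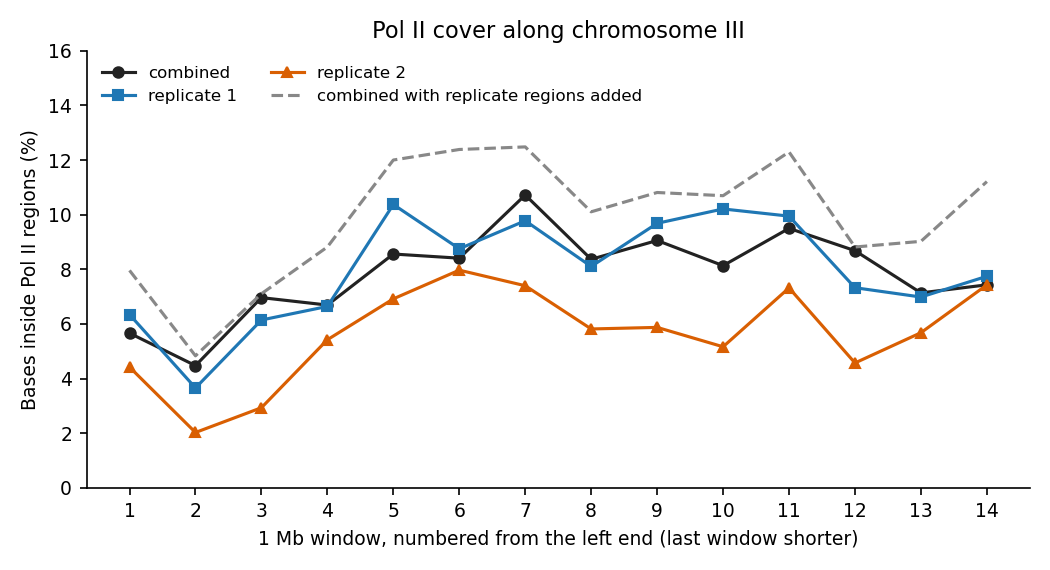
Percent of bases inside Pol II regions (y axis) in the 14 windows of 1 Mb along chromosome III, numbered from the left end (x axis), for the combined list, each replicate, and the combined list with replicate regions that overlap nothing in it added. The second window is the lowest in every list, with 4.47% in the combined list, and 3.66% in replicate 1 with 2.03% in replicate 2.

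A larger share of the right arm than of the left lay inside Pol II regions. With the chromosome divided into 3 equal parts of 4.59 Mb, the right part was covered to 8.43% and the left part to 6.18% in the combined list, a difference of 2.26 percentage points. In replicate 1 the right part had 8.68% and the left part 6.39%, and in replicate 2 they had 6.06% and 4.30%. Both replicates thus put the right part higher, by 2.29 and 1.76 points (mean 2.03 ± 0.374, SD, n = 2). A two-sided exact permutation test over the signs of the 2 differences gave p = 0.5, the lowest value this design can reach.

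The right part also held more regions, with a slightly higher median width and a higher share of strong ones. It had 653 regions and the left part had 547, that is 142 and 119 per Mb. The median widths were 309 bp on the right and 298 bp on the left in the combined list, 337 and 316.5 bp in replicate 1, and 319.5 and 284 bp in replicate 2. Of the regions on the right, 28.0% had q below 1e-20 (Wilson 95% interval 24.7 to 31.6), against 21.6% on the left (interval 18.3 to 25.2), a difference that was not tested and whose intervals overlap. Regions of at least 2500 bp numbered 28 on the right and 18 on the left in the combined list and 37 and 25 in replicate 1, but 11 and 12 in replicate 2. With replicate regions outside the combined list added, there were 45 on the right and 40 on the left. The number of regions per Mb was higher on the right in replicate 1 (117.6 against 100.6) and in replicate 2 (115 against 92.8).

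Among the 6 chromosomes, III had the largest excess of the right over the left part in covered bases in every list. Chromosome II came next with 1.21 points of cover in the combined list, and 1.44 in replicate 1 with 1.13 in replicate 2. In the number of regions per Mb the order was different: chromosome II exceeded III, with an excess of 23.1 on III and 37.7 on II in the combined list, 17.0 and 31.6 in replicate 1, and 22.7 and 24.4 in replicate 2. In cover, chromosome IV leaned the other way, by -2.34, -1.76 and -1.07 points. The order of the 6 chromosomes by this difference was not tested. The size of the difference on chromosome III rests in part on 1 window. Without 1000001 to 2000000, a choice made after its value was seen, the right part still exceeded the left, by 1.78 points in the combined list, and 1.53 in replicate 1 with 1.13 in replicate 2. The part that unique mapping of 36-base reads plays in this was not tested.

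**Figure D2:**
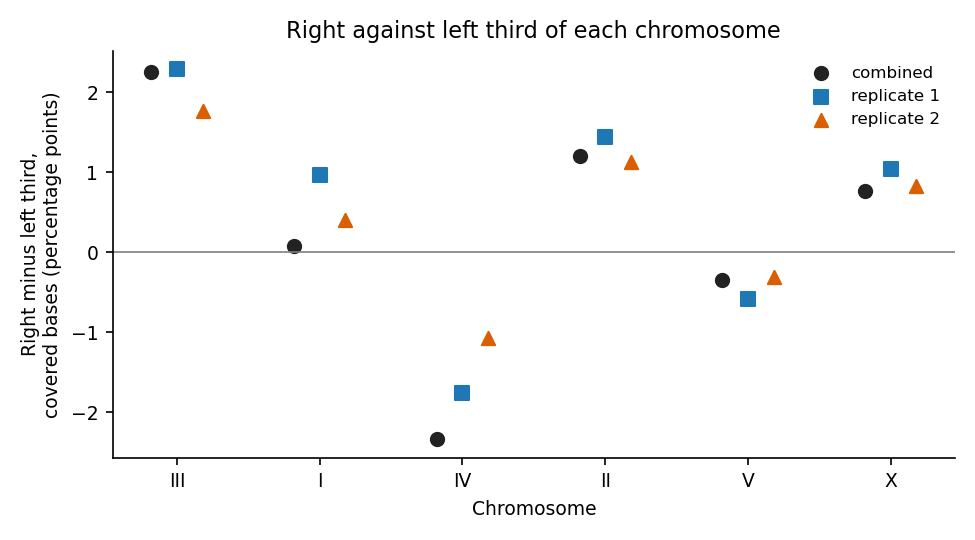
Covered bases of the right part minus the left part, in percentage points (y axis), for chromosome III and the 5 other chromosomes (x axis), 1 symbol per list. Chromosome III has the highest value in all 3 lists, 2.26 points in the combined list, and 2.29 in replicate 1 with 1.76 in replicate 2.

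The centre stood above both arms, though not far above the right one. The central part was covered to 8.94% and the outer parts together to 7.30% in the combined list, a difference of 1.63 points. The difference was 1.34 points in replicate 1 and 1.28 points in replicate 2 (mean 1.31 ± 0.0431, SD, n = 2; exact two-sided permutation of signs, p = 0.5, again the lowest possible). The central part held 712 regions (155 per Mb), and 32.7% of them had q below 1e-20. Beside the right part alone the centre was close, with 8.94% against 8.43% in the combined list, 8.87% against 8.68% in replicate 1 and 6.46% against 6.06% in replicate 2.

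Neighbouring regions were mostly close together, with some long stretches that held no region of the list. The median gap between neighbours on chromosome III was 2167 bp (quartiles 570.5 and 7840.5 bp), against 1674.5 bp on chromosome IV, 2220 bp on chromosome I and 4246 to 6327.5 bp on chromosomes II, V and X. In the combined list 689 gaps (36.1%) were at most 1000 bp long, and the shortest was 200 bp. At the other end 174 gaps were over 20 kb and together made up 43.1% of the chromosome, but only 21 were over 50 kb, or 1.1% of the gaps, against 10.1% on chromosome V and 10.0% on X. The number over 50 kb was 39 in replicate 1 and 36 in replicate 2. Of the 21 in the combined list, 5 had their midpoint in the right part, 4 in the central part and 12 in the left part. Many long gaps of the combined list were not empty in the replicates. Of the 174 over 20 kb, 88 held a replicate 1 region and 73 a replicate 2 region, and of the 21 over 50 kb, 12 and 8 did. Whether combined regions ranked above the first line lie in these gaps is not known.

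**Figure D3:**
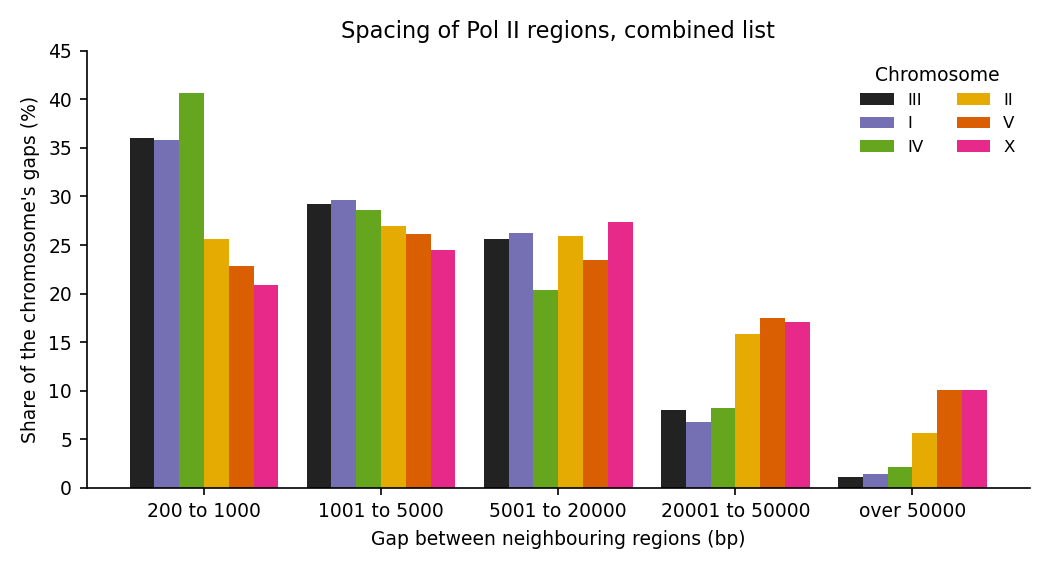
Share of the gaps between neighbouring regions (y axis) in 5 classes of gap length in bp (x axis) for chromosome III and the 5 other chromosomes, combined list. Chromosomes III, I and IV have the most gaps of 200 to 1000 bp (36.1%, 35.8% and 40.6%) and the fewest over 50000 bp (1.1%, 1.44% and 2.18%).

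The 5 longest gaps were nearly empty in the replicates too. The longest ran from 1287475 to 1405955 (118481 bp), and held 1 replicate 1 region with 38 bases inside the gap and none of replicate 2. The next, 9145425 to 9237641 (92217 bp), held 3 replicate 1 regions over 233 bases. The third, 5453380 to 5541995 (88616 bp), held 1 region of each replicate, with 35 and 21 bases. The fourth, 1424710 to 1508651 (83942 bp), held none of either. The fifth, 10017044 to 10088543 (71500 bp), held 1 replicate 2 region of 156 bases.

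The first and the fourth of these gaps are almost neighbours. Together with the short marked stretch between them they span 221177 bp on the left arm, inside the lowest window. The combined list had 10 regions there over 1.90% of the bases, all between 1405956 and 1424709. Their lowest q was 3.82e-41 and the widest measured 1459 bp. Replicate 1 had 7 regions (2.77%, lowest q = 4.29e-230, widest 3073 bp) and replicate 2 had 8 (1.52%, lowest q = 9.87e-106, widest 1630 bp). Whether a combined region ranked above the first line of its list lies here is not known, so the combined share may be too low. This stretch was chosen after its values were seen.

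Clusters were common, and most were small. Taking 3 or more regions, each at most 1000 bp from the next, as a cluster, the combined list had 153 clusters with 609 regions (31.9%, Wilson 95% interval 29.8 to 34.0), besides 233 pairs and 837 single regions. Replicate 1 had 156 clusters with 595 regions (35.8%, interval 33.6 to 38.2) and replicate 2 had 97 clusters with 370 regions (23.7%, interval 21.7 to 25.9). On the 5 other chromosomes pooled 27.6% of combined regions lay in clusters. Chromosomes IV and I had higher shares than III, with 39.2% and 33.6%, and chromosomes II, V and X had 19.2%, 12.2% and 13.8%. The median cluster on chromosome III spanned 2882 bp. In the combined list regions inside clusters differed little from those outside, with a median width of 319 bp against 302 bp and q below 1e-20 in 30.5% against 26.7%. The gap was wider in the replicates: the medians were 351 bp inside and 303 bp outside in replicate 1, and 386 bp inside and 283 bp outside in replicate 2. The shares with q below 1e-20 were 24.0% inside and 19.2% outside in replicate 1, and 20.3% inside and 12.4% outside in replicate 2. Of the regions of the central part 37.1% lay in clusters, with 33.2% in the right part and 23.4% in the left part. In replicate 1 these shares were 39.1%, 35% and 32.3%, and in replicate 2 they were 22.7%, 24.2% and 24.6%, so the low share on the left was not seen in replicate 2.

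The cluster with most regions lay just left of the middle of the chromosome, from 6338297 to 6357145. Its 13 regions covered 75.7% of 18849 bp and were set apart by gaps of 239 to 664 bp. They ranged from 2 bp (q = 1.23e-04) to 3499 bp (q = 9.87e-175). Replicate 1 had 11 regions over 53.7% of the span, with q down to 7.21e-129, and replicate 2 had 14 regions over 43.7%, with q down to 1.2e-30. Of the 13, 9 overlapped replicate 1 and 9 overlapped replicate 2. The strong regions near the left end of the cluster were found again in both replicates. The widest replicate 1 region there, 6343021 to 6347083 (4063 bp), corresponds to 3 separate regions of replicate 2.

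**Figure D4:**
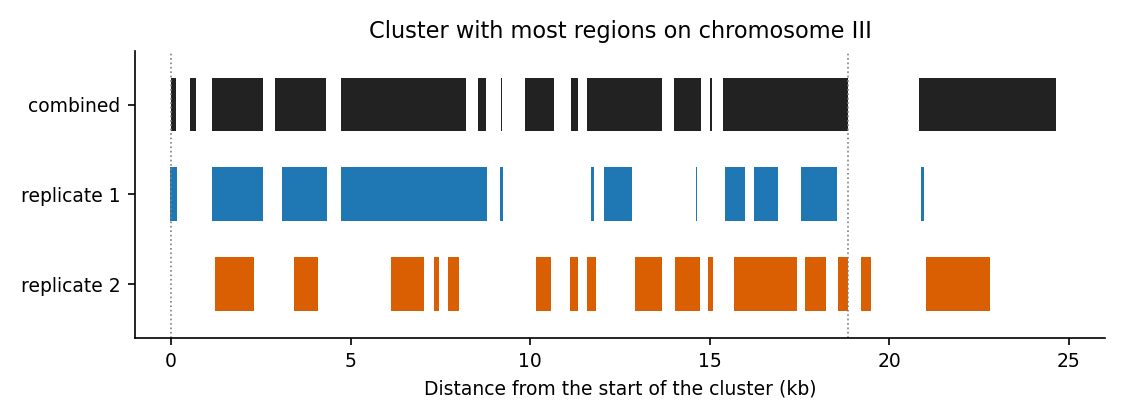
Regions in and beside the cluster with most regions on chromosome III, by distance from the start of the cluster in kb (x axis), in the combined list and each replicate. Bars are regions, drawn to scale, and dotted lines mark the ends of the cluster of 13 combined regions, which spans 18849 bp.

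The other 4 of the 5 largest clusters all lay in the right part. From 9908832 to 9914603 there were 9 short regions (1 to 506 bp) over 43.1% of 5772 bp, with 8 regions in replicate 1 and 3 in replicate 2. From 10460466 to 10468195 there were 8 regions over 64.9% of 7730 bp, with 7 in replicate 1 and 5 in replicate 2. The cluster from 10207362 to 10213404 also had 8 regions, over 44.5% of 6043 bp, with 8 in replicate 1 and 3 in replicate 2. The last, 9849896 to 9859213, had 7 regions over 63.8% of 9318 bp, with 5 in each replicate. Of these 4 clusters, replicate 2 marked 8.59% to 34.3% of the span and replicate 1 marked 34.0% to 71.1%.

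The 10 strongest regions of chromosome III analysed from the combined list were all wide and all present in both replicates. Neither trait sets them apart from other strong regions. Of combined regions with q below 1e-100, all 104 on chromosome III overlapped replicate 1 and all 104 replicate 2. On the 5 other chromosomes 328 and 330 of 330 did. The median width of this class was 2790 bp on chromosome III and 3682.5 bp elsewhere. The first line of that list, at rank 263, was itself on chromosome III, so stronger regions of this chromosome may be missing. The 10 measured 2798 to 6284 bp, with 4 in the right part, 5 in the central part and 1 in the left part. The first, 9814901 to 9819513 (4613 bp), had q = 5.37e-306, with q = 1.91e-220 in 1 region of replicate 1 and 3 regions in replicate 2, the strongest at q = 8.64e-43. The second, 12367007 to 12371702 (4696 bp), had q = 5.21e-298, with q = 3.66e-192 in replicate 1 and q = 6.14e-61 in replicate 2. The third, 8656914 to 8659742 (2829 bp), had q = 2.07e-296 and was the most even of the 10, with q = 2.67e-145 in replicate 1 and q = 3.43e-147 in replicate 2.

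Replicate 2 gave the lower q at the third and at the seventh of the 10. The seventh, 11623647 to 11627644 (3998 bp, q = 1.97e-283), had q = 6.16e-97 in replicate 1 and q = 1.88e-213 in replicate 2, where its region was 5115 bp wide. The fourth to sixth lay in the central part, at 5917054 to 5920430 (q = 1.54e-294), 8356114 to 8358911 (q = 3.94e-287) and 6988006 to 6994289 (q = 7.56e-287). The last 3 were 4648625 to 4652378 (q = 3.40e-280), 12453166 to 12458123 (q = 8.34e-279) and 3868996 to 3874435 (q = 1.31e-273). Replicate 2 broke 8 of the 10 into 2 or more regions, as it did 143 of all 1912 combined regions of the chromosome. The share over all chromosomes is not given here.

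The widest combined regions analysed were mostly single stretches in replicate 1, but fragments in replicate 2. They were picked by width in the combined list, where each is a single stretch by definition. Replicate regions of 8675 and 9089 bp overlapped no combined region. Whether wider combined regions rank above the first line of that list is not known. The widest combined region analysed, 10151536 to 10158141, measured 6606 bp (q = 3.06e-239), and corresponds to 1 region in replicate 1 and to 5 in replicate 2. The next was the region at 6988006 named above, with 6284 bp, 3 regions in replicate 1 and 5 in replicate 2. At 10236238 to 10242201 a region of 5964 bp (q = 2.45e-164) had 1 counterpart in replicate 1 and 4 in replicate 2. At 2871725 to 2877211 a region of 5487 bp (q = 1.11e-144) had 1 and 5, and the fifth, at 3868996, measured 5440 bp with 2 in each replicate. Over the whole chromosome 138 of 1660 replicate 1 regions met 2 or more replicate 2 regions, and 17 of 1559 replicate 2 regions met 2 or more of replicate 1. The same counts are not given here for the other chromosomes, so such splitting is not shown to be particular to chromosome III.

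Most regions of one replicate had a counterpart in the other. Of the 1660 replicate 1 regions on chromosome III, 944 shared 1 bp or more with replicate 2 (56.9%, Wilson 95% interval 54.5 to 59.2), against 57.8% over all chromosomes. Of the 1559 replicate 2 regions, 1136 overlapped replicate 1 (72.9%, interval 70.6 to 75), against 72.4% over all chromosomes. When the overlap had to span 50% of each of the 2 regions, 478 regions of each replicate met, 28.8% of replicate 1 (29.4% over all chromosomes) and 30.7% of replicate 2 (30.4%). Among regions with q below 1e-05, 786 of 1099 in replicate 1 met replicate 2 (71.5%, with 75.1% over all chromosomes) and 750 of 876 in replicate 2 met replicate 1 (85.6%, with 88.2%). The shares over all regions lie near those of the whole lists. The parts differed little: of replicate 1 regions 58.9% were found again on the right, 56.4% in the centre and 55.2% on the left, with intervals that overlap. Counted by bases, the replicates shared 0.523 Mb, which is 47.6% of the replicate 1 cover and 67.7% of the replicate 2 cover.

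Among weak replicate 1 regions, the share with a counterpart was 28.2% on chromosome III and 34.4% elsewhere. With q between 1e-05 and 0.01, 158 of 561 replicate 1 regions on chromosome III overlapped replicate 2 (interval 24.6 to 32.0), against 853 of 2477 on the other chromosomes (interval 32.6 to 36.3). The regions of this class had a median width of 132 bp on chromosome III and 200 bp elsewhere. The part of width in this difference was not tested, nor was the difference itself. It is not shown to be particular to chromosome III, because the other chromosomes were pooled in this class. Among replicate 1 regions with q below 1e-05, chromosomes I and IV were near chromosome III, with 70.7% and 74.2% against 71.5%. On chromosomes II, V and X that share was 82.0% to 85.9%. At q between 1e-50 and 1e-20 the share was 94.0% (172 of 183) against 95.3%, and below 1e-100 all 73 regions overlapped, against 98.1% over all chromosomes. For replicate 2 the weak class stood at 56.5% on chromosome III and 56.4% elsewhere.

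**Figure D5:**
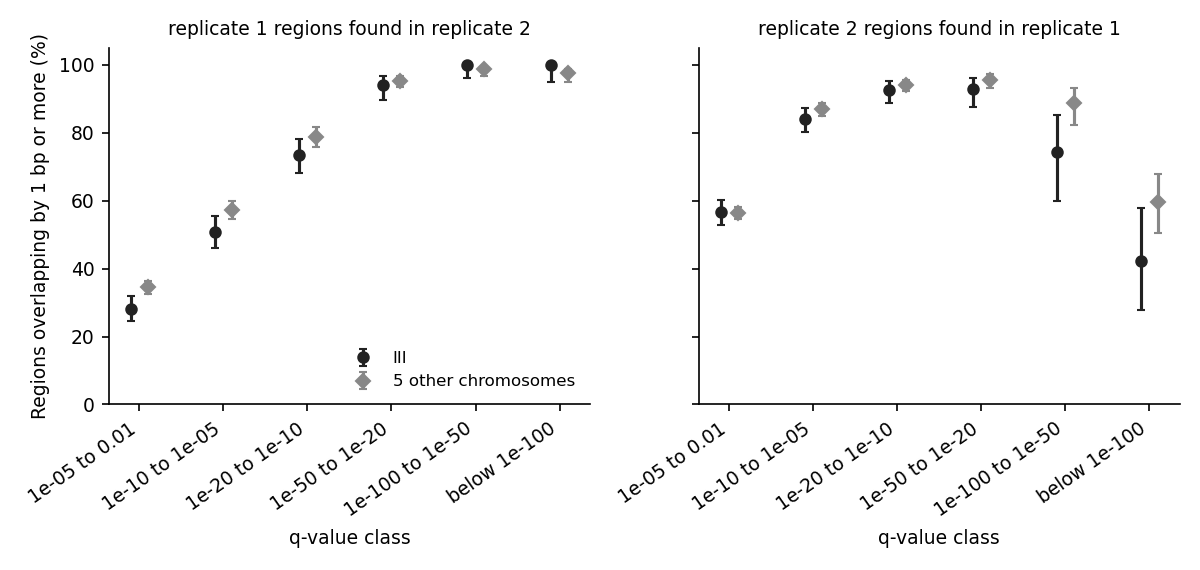
Percent of regions of one replicate that overlap the other by 1 bp or more (y axis), by q-value class from weak to strong (x axis), for chromosome III and for the 5 other chromosomes. Bars are Wilson 95% intervals, counting error only. On chromosome III the share is 28.2% in the weakest and 100% in the strongest class of replicate 1, while in replicate 2 it is 92.7% for q from 1e-20 to 1e-10 and 42.1% below 1e-100.

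The strongest replicate 2 regions broke this pattern. Of the 38 replicate 2 regions on chromosome III with q below 1e-100, 16 overlapped replicate 1 (42.1%, interval 27.9 to 57.8), against 55.3% over all chromosomes. The 3 with the lowest q outside replicate 1 were 5874092 to 5877395 (3304 bp, q = 1.18e-291), 5023770 to 5025727 (1958 bp, q = 1.85e-265) and 12612202 to 12617859 (5658 bp, q = 6.59e-265). They lay 960, 527 and 1453 bp from the nearest replicate 1 region and 914, 538 and 1359 bp from the nearest combined region. An absent partner here cannot be told apart from a partner among the 152 replicate 1 regions ranked above the first line of its list.

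The 3 strongest replicate 1 regions without a replicate 2 counterpart were much weaker. They were 8450352 to 8450899 (548 bp, q = 1.26e-40), 16773 to 17953 near the left end (1181 bp, q = 1.15e-30) and 5101171 to 5102010 (840 bp, q = 4.10e-27). The first lay 17996 bp from any replicate 2 region and 10050 bp from any combined region, so it was the most isolated of the 3. The second and the third overlapped the combined list and lay 1030 and 751 bp from the nearest replicate 2 region.

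Where both replicates had a region, replicate 1 usually had the stronger and wider one. Across 923 pairs of best overlapping regions on chromosome III, the −log10 q-values had a Spearman correlation of 0.715 and the widths 0.681, as a description of pairs from the same 2 libraries called against the same input. Replicate 1 had the lower q in 78.9% of the pairs and the wider region in 75.4%. The median −log10 q of the pairs was 13 in replicate 1 and 7.33 in replicate 2, and the median widths were 549 and 351 bp. Chromosomes I and IV had lower q in replicate 1 in 78.4% and 77% of pairs, and chromosomes II, V and X in 65.4% to 68.8%.

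Most regions of the combined list overlapped at least 1 replicate. The combined list was called on both replicates merged, so it is not independent of them and some overlap was built in. Of its 1912 regions on chromosome III, 914 overlapped both replicates (47.8%, interval 45.6 to 50.0), against 44.9% over all chromosomes. Another 549 overlapped replicate 1 alone (28.7% against 26.8%) and 204 overlapped replicate 2 alone (10.7% against 12.2%). The 245 that overlapped neither made up 12.8% (interval 11.4 to 14.4), against 16.1% over all chromosomes. Among the 1470 with q below 1e-05, 911 overlapped both (62.0%, with 64% over all chromosomes) and 51 neither (3.47%, with 3.53%). With 50% of both regions required, 464 overlapped both (24.3%, with 22% over all chromosomes) and 550 neither (28.8%, with 31.1%). The 914 regions found in both had a median width of 589.5 bp, a median q of 1.66e-23 and 81.2% of the covered bases of the chromosome. The 245 without a counterpart were short, with a median of 81 bp, a median q of 5.49e-04 and 2.69% of the covered bases.

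Some of the strongest places of the replicates did not overlap the combined list as analysed here, although most regions did. Such an absence cannot be told apart from a counterpart among the 262 regions ranked above the first line of the combined list. Of the 1660 replicate 1 regions, 1463 overlapped it (88.7% over all chromosomes did), and of the 1559 of replicate 2, 1316 did (86.1% over all chromosomes). Of the 73 replicate 1 regions on chromosome III with q below 1e-100, 49 overlapped the combined list (66.8% over all chromosomes did), and of the 38 of replicate 2, 3 did (15.1% over all chromosomes). Joined over both replicates, the absent ones made 46 places of 1455 to 9089 bp that add up to 200.7 kb, and 24 of the 46 had a region in both replicates. They were spread over the chromosome, with 17 in the right part, 14 in the central part and 15 in the left part.

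Such places include the region with the lowest q in replicate 1 and the widest region of each replicate. The lowest q of replicate 1 on chromosome III was at 831883 to 836489 (4607 bp, q = 3.34e-304), with q = 2.93e-164 in replicate 2, and is 1 of 4 replicate 1 regions of the chromosome that the file comments mark as altered inside by the move from an earlier build. The widest replicate 2 region of the chromosome, 4491219 to 4500307 (9089 bp, q = 1.74e-213), met 5 replicate 1 regions with q down to 4.43e-191. Close beside it, 4502080 to 4508694 of replicate 1 (6615 bp, q = 5.28e-278) met 2 replicate 2 regions with q down to 7.30e-180. The widest replicate 1 region, 13615813 to 13624487 (8675 bp, q = 7.48e-282), lay near the right end and met 4 replicate 2 regions with q down to 1.61e-166. None of these places overlapped a combined region, though both replicates marked them. These places were named after their values were seen. With all replicate regions outside the combined list added, cover of chromosome III was 9.87%, and the right part exceeded the left by 2.6 points.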

How the data were processed

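Pol II ChIP and input DNA of L3 worms were sequenced in 2 replicates each. Regions were called with PeakSeq in WormBase WS220, per the file headers, whose comments record a move from an earlier build. By the deposited sample table, each of the 3 lists was called against both inputs merged, and the combined list on both ChIP replicates merged. The q-value of each region is the authors' deposited value; all are below 0.01. Read counts of 36-base reads come from the deposited sample table, and the alignment with Eland is named in the deposited investigation file. The inputs have no regions of their own and enter only as the authors' control.

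Widths, gaps, cover, clusters, values in 3 equal parts of the chromosome and overlaps (1 bp or more) came from scripts in Python 3.11.15 that used pandas 2.3.3, scipy 1.17.1, numpy 2.4.6 and, for plots, matplotlib 3.10.9. Chromosome length was taken as the last base of the last region of any list. The scripts gave the known answer for 11 of 11 simulated cases. Shares have Wilson 95% intervals. The 2 replicates were compared by exact sign-flip tests. Ranks were inferred from the steps between neighbouring q-values.

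Named were the 10 combined regions with the lowest q, the 5 widest, the 3 strongest of each replicate without a counterpart, the 5 largest clusters, the 5 longest gaps, and the highest and lowest windows of 1 Mb. Regions and measures were chosen with earlier results of these data known. No sequence or gene annotation of WS220 was used here, so regions carry no gene names. Alternatives varied the overlap, q, gap and window limits, the division of the chromosome and the replicate used.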

Additional observations from a re-analysis of the deposited data

How the results depend on the processing

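Of 42 values under other settings, only the differences between parts of the chromosome could change sign, and none of them did. These differences were judged by direction alone, and the other values by the spread of the replicates or the interval. By this, 20 held and 22 moved, with all the differences among the 20. The centre's excess kept its direction but changed in size, to 2.29 points with the central 50% as the centre, 1.82 with 4 to 10 Mb and 1.77 with replicate regions added, against 1.63. Requiring an overlap of 50% of both regions lowered the share of combined regions in both replicates to 24.3% and raised the share in neither to 28.8%; the share of replicate 1 regions found in replicate 2 was then 28.8% and the reverse share 30.7%. With q below 1e-05 these 4 shares were 62.0%, 3.47%, 71.5% and 85.6%, the median gap was 3247 bp and the density 106.7 regions per Mb. Chromosome I, with 1609 such regions against 1470 on chromosome III, was then slightly denser for its length. Joining regions at most 1000 bp apart gave 88.8 regions per Mb on chromosome III. Chromosome I was marginally denser at this setting too, with 746 such gaps among its 2082 regions against 689 among 1912 on chromosome III. Leaving out regions narrower than 36 bp gave a median width of 329 bp, and adding replicate regions outside the combined list gave a cover of 9.87%. The share in clusters was 15.3% with a largest gap of 500 bp, 47.7% with 2000 bp and 72.6% with 5000 bp. The cause of these shifts was not tested.

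With 1 replicate left out, that is with the list of the other alone, the density ranged from 113.2 to 120.5 regions per Mb and the cover from 5.61% to 7.98%. The median gap ranged from 2057 to 3068 bp, the median width from 299 to 318.5 bp and the share in clusters from 23.7% to 35.8%. The right part exceeded the left by 1.76 to 2.29 points and by 17.0 to 22.7 regions per Mb, and the centre exceeded the outer parts by 1.28 to 1.34 points. No paired analysis was possible because only the ChIP samples have regions: the inputs, which share replicate numbers with the ChIP samples, have no region values of their own. The part of depth was not tested; replicate 2, with 4623128 unique reads, had fewer regions and less cover than replicate 1, with 3262273. The strongest regions are limited by those ranked above the first line of each list.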
